A study of Mus musculus with 9 samples.

Results

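Mitochondria make a small set of respiratory chain proteins on ribosomes of their own, and nuclear genes encode all the proteins of these mitoribosomes. The genes described here are the protein-coding genes of the expression table whose mouse symbol begins with Mrpl or Mrps followed by a digit. They number 76 of 12842 genes, of which 12146 are protein-coding. By symbol and textbook structure, 49 encode proteins of the large subunit and 26 encode proteins of the small subunit. Mrps36, the remaining gene, encodes a protein now placed in the 2-oxoglutarate dehydrogenase complex and not in the ribosome.

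The mitoribosome descends from a bacterial ribosome and is built from mitochondrially encoded rRNAs and imported proteins. Its proteins are made in the cytosol, imported and assembled with the rRNAs, so nuclear and mitochondrial gene expression have to meet in the particle. It makes core subunits of the respiratory complexes and of the ATP synthase, and many of its proteins have no bacterial counterpart.

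The series holds RNA sequencing of 9 libraries of NPK cells, a mouse prostate cancer line, with 3 libraries in each of 3 groups. The groups are control cells, cells with shRNA against Nsd2, a histone methyltransferase gene (shNsd2), and cells given MCTP, for which the study names 1 compound as a putative inhibitor of the NSD2 protein. NPK cells came from lung metastases of a genetically engineered mouse model of prostate cancer, and every group shares that origin. The cells grew in RPMI medium with serum, and libraries were made from polyadenylated RNA.

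Several points limit the groups. Each MCTP library has its own compound number in its title (39, 40 or 41), so the group may hold 3 compounds, and the sources used give a dose and time for 1 such compound in another cell line but none for NPK cells. The titles, which set the groups here, call 3 libraries shNsd2, yet another label calls them Nsd2, Nsd3 and Nsd4. The study describes a vector against luciferase as the control in its silencing experiments. The labels do not say which shRNA each library carried, or whether the sequenced control cells, which serve both treatments, carried that vector. All libraries come from cells of 1 mouse model.

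Expression is given as log2 values scaled and variance-stabilized by the authors. A difference of 1 is close to a doubling at high levels and can stand for more than that at low levels. Values in each group are listed for replicates 1, 2 and 3. In bulk RNA, fewer cells that express a gene and less RNA per cell cannot be told apart. A gene was called where limma, fitted to the 6 libraries of a comparison over all tested genes, gave a Benjamini-Hochberg adjusted p under 0.05. Fold changes are on the log2 scale, with their standard error (SE). Both treated groups were compared with the same 3 control libraries.

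MCTP replicate 2 stood apart from the other libraries of its group. Over the 76 genes it lay below the mean of MCTP replicates 1 and 3 in 64, by a median of -0.17 on the log2 scale, against -0.02 over all genes. Across the 12513 genes matched to an annotation, this deviation had a Spearman's rho of -0.70 with the GC content and 0.37 with the length of the longest transcript; genes are not independent replicates. MCTP replicates 1 and 3 deviated from the rest of their group the other way, at a rho with GC content of 0.43 and 0.68, and lay below it in 23 and 11 of the 76 genes. Against the control mean the rho was 0.06 for MCTP replicate 2 and 0.51 and 0.56 for MCTP replicates 1 and 3, so by that measure replicate 2 had the weaker trend. Control replicate 1 and shNsd2 replicate 3 also deviated from the rest of their groups with GC content, at a rho of -0.59 and -0.65, and lay below them in 54 and 56 of the 76 genes. The mean log2 level of 15 mitochondrially encoded genes was 14.002 in MCTP replicate 2, against 13.55 and 13.52 in MCTP replicates 1 and 3. It was 13.85, 13.70 and 13.62 in the control libraries and 13.83, 13.72 and 13.97 in the shNsd2 libraries. These library traits were looked at after values had been seen, and their part in the results was not tested.

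The labels were checked on the targeted gene. Nsd2, listed under its older symbol Whsc1, had log2 values of 12.48, 12.43 and 12.42 in the control libraries, 11.56, 11.61 and 11.68 in the shNsd2 libraries and 12.15, 12.21 and 12.07 in the MCTP libraries. All 3 shNsd2 libraries lay below all 3 MCTP libraries, and these lay below the control libraries. It fell with shNsd2, at a log2 fold change of -0.83 (SE 0.041, adjusted p = 2.26e-06). With MCTP it also fell, at -0.30 (SE 0.054, adjusted p = 0.00562), but a correction for GC content brought that value to -0.12 with an adjusted p of 0.0775. Over all alternatives tried its adjusted p with MCTP ran from 2.72e-04 to 0.132, the latter with the replicate block and GC correction together. The GC correction also removes treatment effects that follow GC content, so it cannot tell these from technical trends.

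Of the epithelial markers, Krt8, a luminal keratin, had log2 values of 16.21, 16.35 and 16.28 in the control, 16.15, 16.10 and 15.97 in the shNsd2 and 16.57, 16.34 and 16.70 in the MCTP libraries. Krt18, its partner, stood at 15.25, 15.47 and 15.44, at 15.45, 15.37 and 15.31 and at 15.40, 15.21 and 15.52 in the same order. Cdh1, the E-cadherin gene, stood at 11.698, 11.79 and 11.84 in control, 11.58, 11.58 and 11.56 in shNsd2 and 11.46, 11.44 and 11.41 in MCTP libraries, below the controls in both treated groups. Epcam, the other pan-epithelial gene, lay under the floor of detection of 3.78 in every library, with control values of 3.55, 3.54 and 3.55. Vim, a mesenchymal filament gene, made up nearly all of the summed level of its list, with 4 of 6 genes analysed, which was 17.16, 17.26 and 17.23 in control, 17.09, 17.10 and 16.99 in shNsd2 and 17.56, 17.40 and 17.65 in MCTP libraries. Col1a1 stood at 8.25, 8.12 and 8.23 in control, 7.88, 7.95 and 7.89 in shNsd2 and 7.94, 7.92 and 7.76 in MCTP libraries, below the controls in both treated groups. Pdgfra stood at 3.97, 4.01 and 3.99 in control, 4.14, 4.097 and 4.12 in shNsd2 and 4.04, 4.06 and 4.03 in MCTP libraries, above the controls in both. Dcn lay under the floor in every library, with control values of 2.31, 2.32 and 2.34. The basal list, with 2 of 3 genes analysed and a sum carried by Krt14, had a summed level of 8.88, 9.06 and 9.04 in control, 9.80, 9.73 and 9.68 in shNsd2 and 10.10, 9.96 and 10.34 in MCTP libraries. Krt14 was higher in every treated library than in every control library. Trp63, the other basal gene, lay at 4.94, 4.81 and 4.85 in control, 4.78, 4.77 and 4.77 in shNsd2 and 4.88, 4.95 and 4.86 in MCTP libraries, so it was lower in every shNsd2 library than in every control library. Cd68, a macrophage gene and the 1 analysed of 5 in the immune list, stood at 6.496, 6.51 and 6.60 in control, 6.78, 6.78 and 6.72 in shNsd2 and 7.20, 7.15 and 7.44 in MCTP libraries. Krt5, Ptprc and Pecam1 were not among the genes analysed. What these marker shifts contribute to the results was not tested.

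With shNsd2, genes of the mitoribosome were mostly higher than in control cells, by small amounts. Their mean log2 level was 10.03, 10.07 and 10.04 in the control libraries and 10.20, 10.17 and 10.15 in the shNsd2 libraries, so all 3 shNsd2 libraries lay above all 3 control libraries. As group means these are 10.05 ± 0.024 and 10.17 ± 0.025 (SD, n = 3 libraries). Read as plain log2 values, their geometric mean ratio to the control mean was 1.11, 1.09 and 1.07. Of the 76 genes, all tested, 41 were called higher with shNsd2 (53.9%), where 23.1% of the 12205 genes tested were called higher. There were 3 called lower (3.95%), where the background was 24.8%. The median log2 fold change was 0.14 over the 76 genes and 0.002 over all genes. By separation alone, 46 genes (60.5%) had all shNsd2 libraries above all control libraries, against a background of 28.1%, and 6 (7.89%) had them all below, against 29.1%. Among the genes called higher, 24 (58.5%) rose by more than 0.2, 8 (19.5%) by more than 0.3 and none by more than 0.5, against 50.4%, 19.3% and 3.09% of all genes called higher.

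Leaving out 1 library at a time moved the higher count to between 28, without shNsd2 replicate 1, and 42, without shNsd2 replicate 3, where 17.2% and 22.1% of all genes were called higher. Of the 41 genes, 28 were called in all 6 such fits, and all 41 kept their sign in each. The lower count became 2 without control replicate 2, shNsd2 replicate 1 or shNsd2 replicate 2. In these fits 20.4%, 19.4% and 18.8% of all genes were called lower. Without control replicate 1 the lower count was 4, where 24.8% of all genes were called lower.

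**Figure D1:**
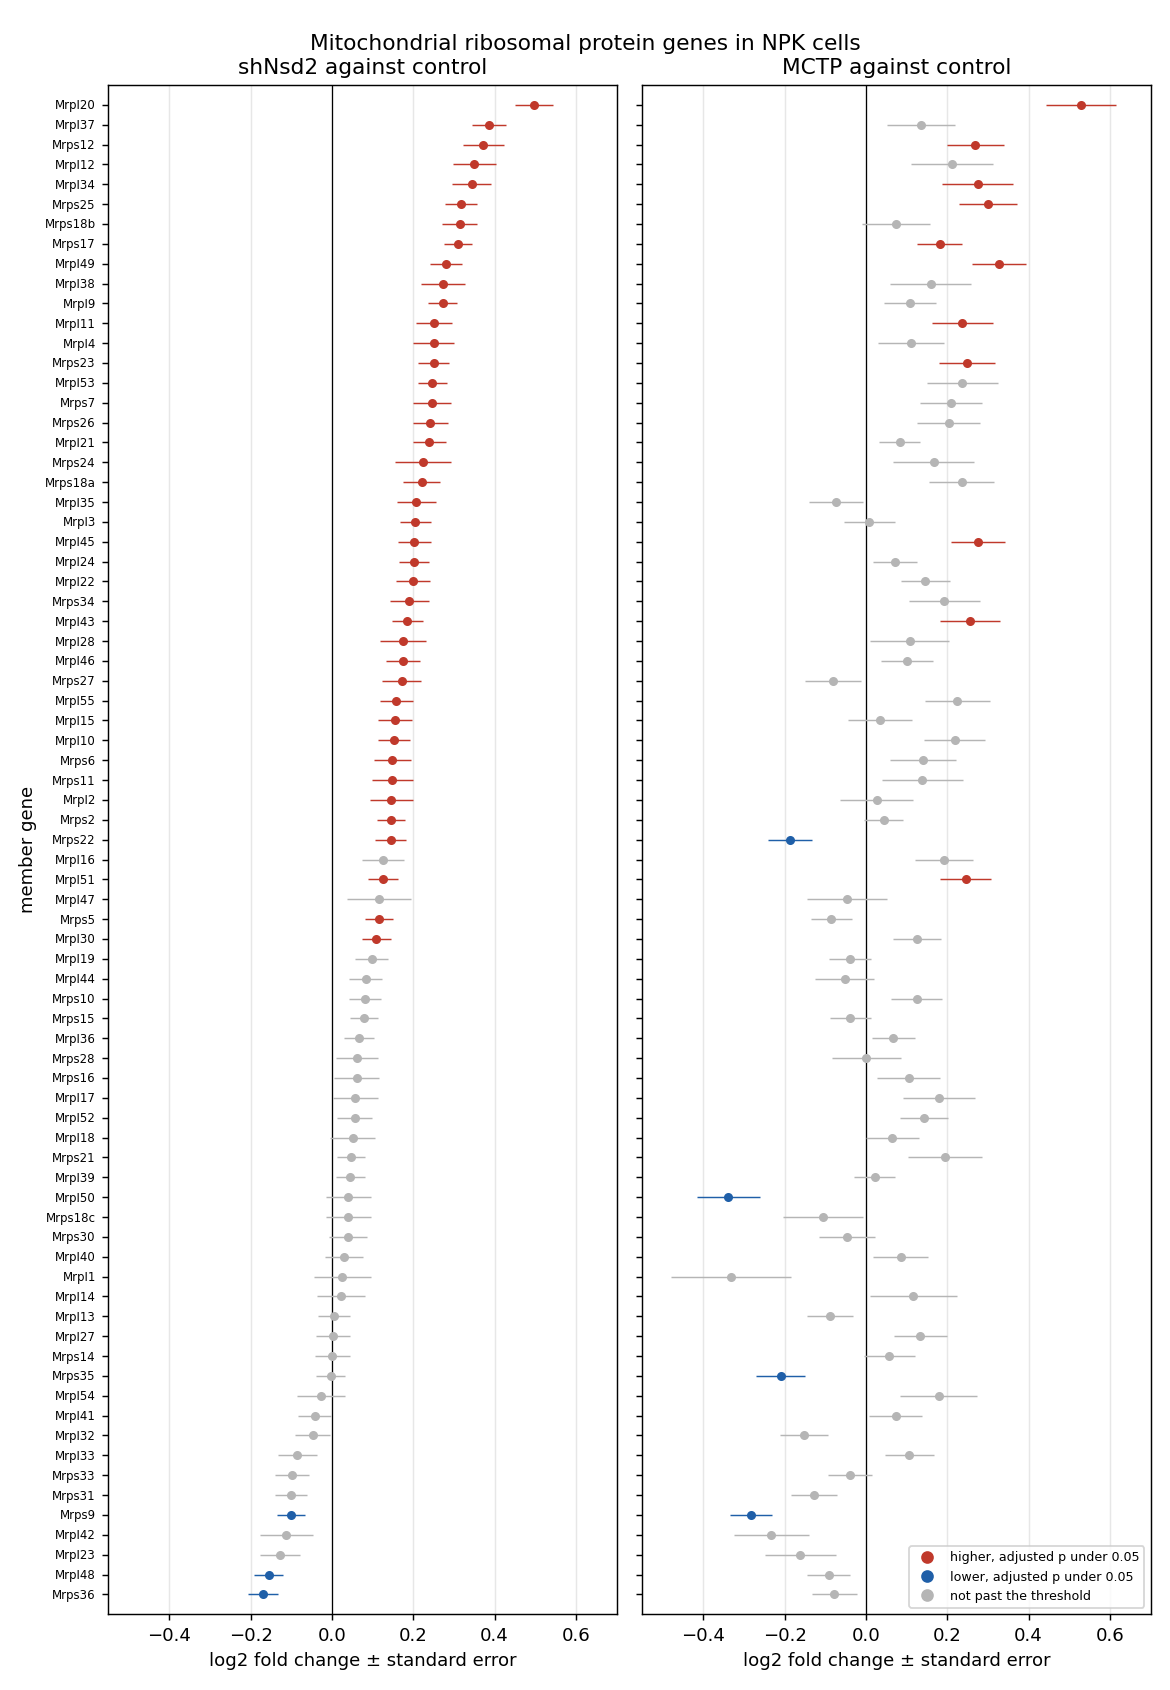
Log2 fold change (x axis) of each of the 76 mitochondrial ribosomal protein genes (y axis, ordered by the change with shNsd2) against control, with the standard error as bars, for shNsd2 on the left and MCTP on the right. Red points are called higher (41 and 11 genes), blue points lower (3 and 4 genes) and grey points did not pass the threshold.

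With MCTP the picture varied between libraries. The mean log2 level over the 76 genes was 10.14, 10.03 and 10.20, so replicates 1 and 3 lay above every control library and replicate 2 lay among them. The group mean was 10.12 ± 0.083 (SD, n = 3 libraries), and the ratios to the control mean were 1.06, 0.990 and 1.11. Limma called 11 of the 76 genes higher (14.5%), where 17.99% of the 12216 genes tested were called higher, and 4 lower (5.26%), where the background was 17.2%. The median log2 fold change was 0.11, against -0.006 over all genes. All MCTP libraries lay above all control libraries for 24 genes (31.6%, background 25.8%) and below them for 9 (11.8%, background 24.8%).

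These MCTP counts rested on single libraries. Without MCTP replicate 2, 39 genes were called higher and 8 lower, while calls over all genes also grew, to 29.8% higher and 30.6% lower. Without MCTP replicate 1, 2 were higher and 1 lower (all genes 9.19% and 7.56%), and without MCTP replicate 3, 5 were higher and 3 lower (12.8% and 10.5%). Without control replicate 1, 2 or 3 the higher count was 2, 3 and 2 (10.6%, 9.95% and 10.8% of all genes), and the lower count 1, 2 and 2 (8.76%, 7.75% and 9.27%). The median log2 fold change ran from 0.05, without MCTP replicate 3, to 0.16, without MCTP replicate 2. Mrpl20 and Mrpl49, both higher, and Mrps9, lower, were called in all 6 of these fits, though Mrps9 was not with GC correction. With median centring the split was 14 higher and 2 lower (all genes 20.7% and 13.99%), and with a correction for GC content 18 higher and 5 lower (all genes 22.6% and 22.99%).

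**Figure D2:**
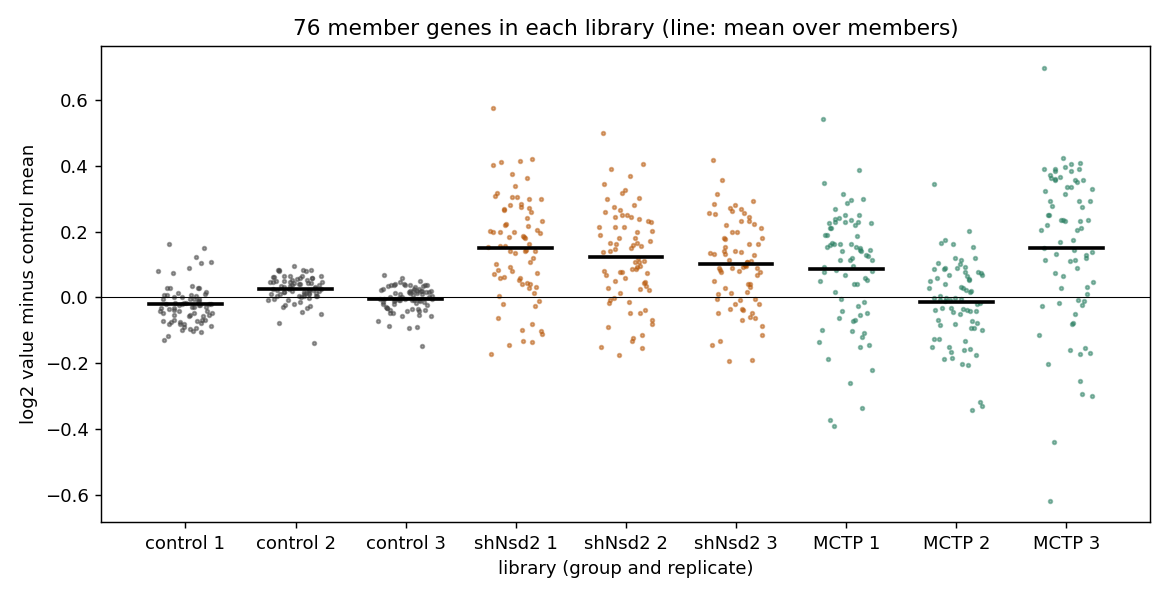
Log2 value minus the control mean (y axis) of the 76 genes in each of the 9 libraries (x axis), 1 point per gene, with the mean over genes as a line. The mean level is 10.20, 10.17 and 10.15 in the shNsd2 libraries and 10.14, 10.03 and 10.20 in the MCTP libraries, against 10.03, 10.07 and 10.04 in the control libraries.

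The treated groups were also compared with each other. Of the 76 genes, 11 were called higher in shNsd2 than in MCTP cells, where 20.6% of the 12217 genes tested were called higher, and 1 was called lower, where the background was 22.6%. The median log2 difference was 0.04. Without MCTP replicate 2 it was -0.02, with 18 genes higher and 15 lower, where 31.6% and 32.1% of all genes were called. It was 0.09 without MCTP replicate 3, 0.022 without shNsd2 replicate 1 and 0.07 without shNsd2 replicate 3. Without shNsd2 replicate 1, 2 or 3 the higher count was 3, 3 and 5 (12.8%, 12.2% and 11.6% of all genes), and without shNsd2 replicate 1 limma called 0 lower (16.4% of all genes), with 1 lower at an unadjusted p under 0.05. Mrpl35, Mrpl50 and Mrps22 were higher in shNsd2 cells in all 6 such fits.

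The stalk of the large subunit, which recruits the GTPase translation factors, is represented by Mrpl12, Mrpl10 and Mrpl11. Mrpl12, the stalk protein itself, had log2 values of 11.59, 11.75 and 11.73 in the control libraries, 12.10, 12.06 and 11.96 in the shNsd2 libraries and 11.92, 11.68 and 12.09 in the MCTP libraries. Every shNsd2 library lay above every control library, whereas MCTP replicate 2 lay within the control range. Mrpl12 rose with shNsd2 by 0.35 (SE 0.052, adjusted p = 7.31e-04). With MCTP its log2 fold change was 0.21 (SE 0.1, adjusted p = 0.134), and without MCTP replicate 2 it was 0.32 (adjusted p = 0.00193). Mrpl11, a protein of the GTPase-associated centre, had values of 9.73, 9.81 and 9.71 in the control libraries, 10.06, 9.9997 and 9.95 in the shNsd2 libraries and 10.04, 9.84 and 10.09 in the MCTP libraries. Both treated groups lay wholly above the control group. It rose with shNsd2 by 0.25 (SE 0.045, adjusted p = 0.00188) and with MCTP by 0.24 (SE 0.074, adjusted p = 0.0415). The MCTP call of Mrpl11 was kept without MCTP replicate 2 alone, and was lost without control replicates 1, 2 and 3 (adjusted p = 0.116, 0.0835 and 0.125) and without MCTP replicates 1 and 3 (0.147 and 0.113). With the replicate block it was also lost (0.0776).

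Mrpl10, which anchors the stalk, stood at 11.01, 11.08 and 11.09 in the control libraries, 11.24, 11.24 and 11.16 in the shNsd2 libraries and 11.28, 11.14 and 11.42 in the MCTP libraries. The groups did not overlap for either treatment. The change was 0.15 (SE 0.039, adjusted p = 0.0115) with shNsd2, a call that was lost without shNsd2 replicate 1 (0.0522) and without shNsd2 replicate 2 (0.0575), and with all 9 libraries in 1 fit (0.0978). With MCTP its fold change was 0.22 (SE 0.074, adjusted p = 0.0532), and it was called without MCTP replicate 2 (0.29, adjusted p = 0.00131). It was also called with GC correction (0.16, adjusted p = 0.0293), median centring (0.0451), quantile normalization (0.0355), all 9 libraries in 1 fit (0.0226) and the replicate block with GC correction (0.0472).

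Other large subunit genes included the largest changes of the set. Mrpl20, which encodes an rRNA-binding protein with a bacterial counterpart, had values of 10.31, 10.34 and 10.29 in the control libraries, 10.89, 10.81 and 10.73 in the shNsd2 libraries and 10.86, 10.66 and 11.01 in the MCTP libraries. All 6 treated libraries lay above all control libraries. It rose by 0.50 (SE 0.046, adjusted p = 5.21e-05) with shNsd2, the largest rise among the 76 genes, and by 0.53 (SE 0.086, adjusted p = 0.00382) with MCTP. Both calls were kept whichever library was left out. Mrpl37, a mitochondrion-specific protein, had values of 10.36, 10.47 and 10.48 in the control libraries, 10.85, 10.83 and 10.80 in the shNsd2 libraries and 10.60, 10.41 and 10.72 in the MCTP libraries. Its shNsd2 libraries lay above all others, and MCTP replicate 2 lay within the control range. The rise with shNsd2 was 0.39 (SE 0.042, adjusted p = 1.33e-04). With MCTP the fold change was 0.14 (SE 0.083, adjusted p = 0.224), and it was called without MCTP replicate 2 (0.22, adjusted p = 0.0079). Between the treated groups Mrpl37 differed by 0.25 (SE 0.079, adjusted p = 0.0358), a call lost without MCTP replicate 1 (0.092) or shNsd2 replicates 1, 2 and 3 (0.109, 0.1 and 0.0818). The call was also lost with the replicate block (0.0623), quantile normalization (0.0607) and median centring (0.0608).

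Mrpl34, another large subunit protein of bacterial descent, stood at 9.03, 9.14 and 9.06 in the control libraries, 9.48, 9.42 and 9.36 in the shNsd2 libraries and 9.42, 9.16 and 9.47 in the MCTP libraries. Both treated groups lay above the control group. It rose by 0.34 (SE 0.048, adjusted p = 5.31e-04) with shNsd2 and by 0.27 (SE 0.087, adjusted p = 0.0427) with MCTP. The MCTP call was lost without control replicates 1, 2 and 3 (adjusted p = 0.128, 0.0831 and 0.113) and without MCTP replicates 1 and 3 (0.155 and 0.117). GC correction brought the MCTP value of Mrpl34 to 0.17 (adjusted p = 0.0253), and the call was lost with the replicate block, without (0.0671) and with that correction (0.0505). Mrpl49, a mitochondrion-specific protein, had values of 10.13, 10.12 and 10.05 in the control libraries, 10.40, 10.40 and 10.34 in the shNsd2 libraries and 10.49, 10.30 and 10.49 in the MCTP libraries. Again no treated library reached down to the control range. Its rise was 0.28 (SE 0.039, adjusted p = 5.08e-04) with shNsd2 and 0.33 (SE 0.066, adjusted p = 0.00896) with MCTP, and both calls held in every fit with a library left out.

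Mrpl45 encodes a protein near the exit of the peptide tunnel that holds the ribosome to the inner membrane. Its values were 10.59, 10.71 and 10.64 in the control libraries, 10.87, 10.86 and 10.82 in the shNsd2 libraries and 10.92, 10.82 and 11.03 in the MCTP libraries. All treated libraries exceeded all control libraries. Mrpl45 rose by 0.20 (SE 0.04, adjusted p = 0.00316) with shNsd2 and by 0.28 (SE 0.067, adjusted p = 0.0173) with MCTP, where the call was lost without control replicate 1 (adjusted p = 0.0675), control replicate 3 (0.0622) or MCTP replicate 1 (0.0671). Mrpl44, which has an RNase III-like fold, had values of 9.64, 9.69 and 9.58 in the control libraries, 9.72, 9.71 and 9.73 in the shNsd2 libraries and 9.60, 9.45 and 9.70 in the MCTP libraries. The shNsd2 libraries lay above all controls, but only narrowly, and the MCTP libraries reached past both ends of the control range. The fold changes of Mrpl44 were 0.08 (SE 0.041, adjusted p = 0.128) with shNsd2 and -0.05 (SE 0.074, adjusted p = 0.591) with MCTP, neither past the threshold.

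In the small subunit, Mrps12 and Mrps5 lie near the decoding region, where codons are read. Mrps12 had values of 9.34, 9.46 and 9.41 in the control libraries, 9.82, 9.81 and 9.70 in the shNsd2 libraries and 9.70, 9.56 and 9.76 in the MCTP libraries. Both treated groups stood above the control group. It rose by 0.37 (SE 0.05, adjusted p = 4.32e-04) with shNsd2 and by 0.27 (SE 0.07, adjusted p = 0.022) with MCTP. Without control replicates 1, 2 and 3 the adjusted p with MCTP was 0.0827, 0.0545 and 0.0674, and without MCTP replicates 1 and 3 it was 0.0908 and 0.0606. With GC correction the MCTP value of Mrps12 was 0.17 (adjusted p = 0.00887). Mrps5 had values of 10.45, 10.49 and 10.51 in the control libraries, 10.62, 10.59 and 10.58 in the shNsd2 libraries and 10.41, 10.35 and 10.43 in the MCTP libraries. Its shNsd2 libraries were the highest of the 9 and its MCTP libraries the lowest. The rise with shNsd2 was 0.12 (SE 0.035, adjusted p = 0.0236), and it was not called without control replicate 2 (0.0663), shNsd2 replicate 1 (0.0952) or shNsd2 replicate 2 (0.0747), or with the replicate block (0.0921). With MCTP the fold change was -0.08 (SE 0.05, adjusted p = 0.207). Mrps5 was higher in shNsd2 than in MCTP cells by 0.20 (SE 0.046, adjusted p = 0.0111), lost without shNsd2 replicate 1 (0.059) or replicate 2 (0.0519) and with the replicate block (0.0725).

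Mrps25, a mitochondrion-specific small subunit protein, stood at 10.33, 10.38 and 10.36 in the control libraries, 10.73, 10.67 and 10.62 in the shNsd2 libraries and 10.67, 10.52 and 10.78 in the MCTP libraries. The treated groups both lay above the controls. Its rise was 0.32 (SE 0.04, adjusted p = 2.83e-04) with shNsd2 and 0.30 (SE 0.071, adjusted p = 0.0164) with MCTP. That MCTP call was lost without control replicates 1, 2 and 3 (adjusted p = 0.058, 0.0562 and 0.0565) and without MCTP replicate 1 (0.0703). Mrps9, whose bacterial counterpart reaches into the decoding region, stood at 10.38, 10.42 and 10.39 in the control libraries, 10.29, 10.32 and 10.28 in the shNsd2 libraries and 10.18, 10.07 and 10.10 in the MCTP libraries. Here the order was reversed: control libraries were highest, shNsd2 libraries lay below them and MCTP libraries lowest, with no overlap. Mrps9 fell with MCTP at a fold change of -0.28 (SE 0.052, adjusted p = 0.00625), in every fit with a library left out. It fell with shNsd2 at a fold change of -0.10 (SE 0.035, adjusted p = 0.0389), a call that was kept without control replicate 1 alone, with an adjusted p of 0.136 and 0.083 without control replicates 2 and 3 and of 0.118, 0.0881 and 0.0738 without shNsd2 replicates 1, 2 and 3. Both calls of Mrps9 ended with GC correction, which brought its fold change to -0.07 with MCTP (adjusted p = 0.627) and -0.07 with shNsd2 (adjusted p = 0.363). With the block and GC correction together the adjusted p was 0.605 and 0.350. The shNsd2 call was also lost with median centring (0.101), the replicate block (0.118) and all 9 libraries in 1 fit (0.0888).

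**Figure D3:**
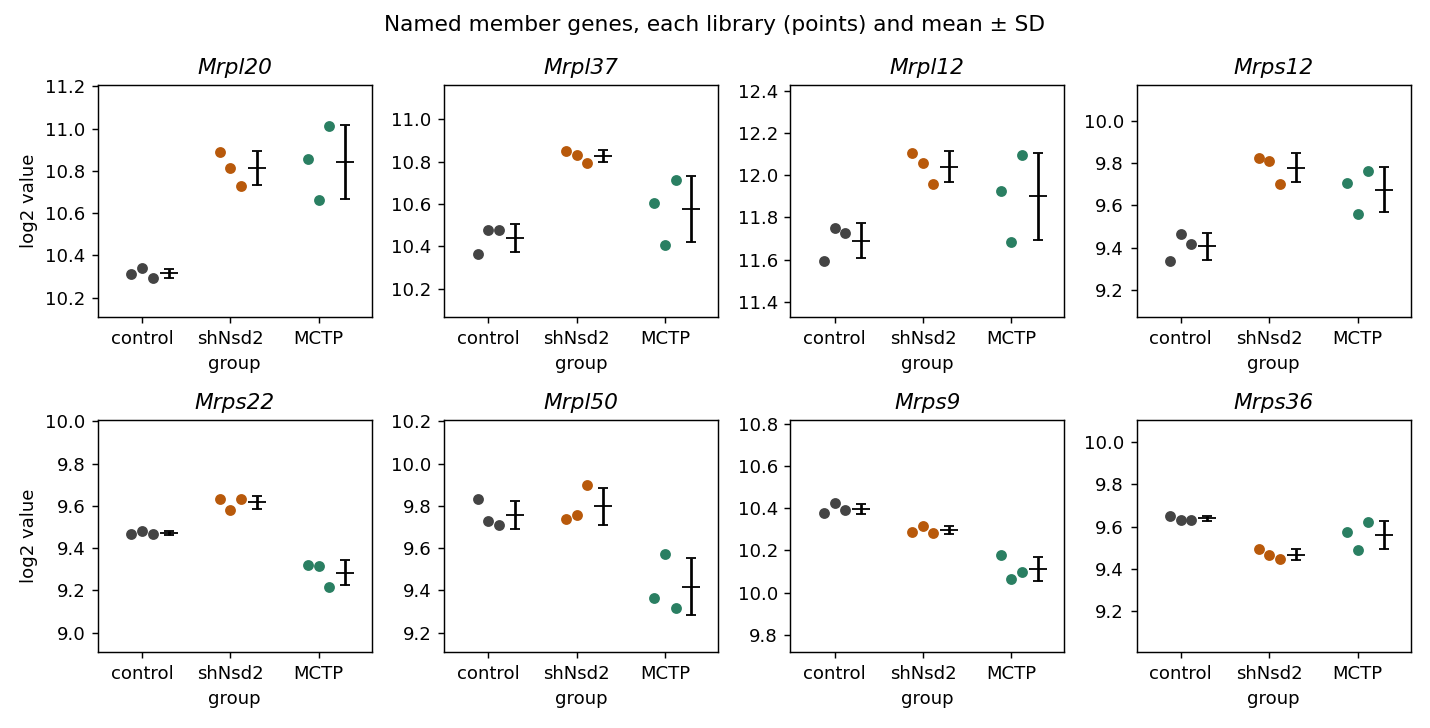
Log2 values (y axis) of 8 named genes in the control, shNsd2 and MCTP groups (x axis), 1 point per library, with the mean and SD of 3 libraries beside the points. Mrpl20 runs from 10.29 to 10.34 in control and from 10.66 to 11.01 in treated libraries, and Mrps22 is highest in shNsd2 and lowest in MCTP libraries.

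Mrps22, a mitochondrion-specific small subunit protein, was the 1 gene of the 76 called in opposite directions with shNsd2 and MCTP. Its values were 9.47, 9.48 and 9.47 in the control libraries, 9.63, 9.58 and 9.63 in the shNsd2 libraries and 9.32, 9.31 and 9.22 in the MCTP libraries. The control libraries lay close together, with every shNsd2 library above and every MCTP library below them. Mrps22 rose with shNsd2 by 0.14 (SE 0.038, adjusted p = 0.0125), a call lost without shNsd2 replicate 1 (0.055) and with the replicate block (0.0581). With MCTP it fell at a fold change of -0.19 (SE 0.054, adjusted p = 0.0316). That call was kept without MCTP replicate 2 alone and lost without control replicates 1, 2 and 3 (adjusted p = 0.0934, 0.115 and 0.094) and MCTP replicates 1 and 3 (0.0797 and 0.0852), and also with median centring (0.0635) and the replicate block (0.0860). The direct comparison of shNsd2 with MCTP gave 0.33 (SE 0.052, adjusted p = 0.00231), called in all 6 fits with a library left out.

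Mrps34, another such protein, had values of 9.73, 9.72 and 9.76 in the control libraries, 10.02, 9.89 and 9.88 in the shNsd2 libraries and 9.90, 9.77 and 10.12 in the MCTP libraries. The shNsd2 libraries all lay above the controls, and so did the MCTP libraries, replicate 2 by a small margin. The rise with shNsd2 was 0.19 (SE 0.047, adjusted p = 0.00968), or 0.12 (adjusted p = 0.0234) with GC correction, and it was not called with all 9 libraries in 1 fit (0.0967). With MCTP the fold change was 0.19 (SE 0.088, adjusted p = 0.118), and without MCTP replicate 2 it was 0.27 (adjusted p = 0.0055). Mrps27, a pentatricopeptide repeat protein of the kind that binds RNA, stood at 10.22, 10.34 and 10.31 in the control libraries, 10.53, 10.46 and 10.40 in the shNsd2 libraries and 10.26, 10.09 and 10.28 in the MCTP libraries. Its shNsd2 libraries were above the control range, and its MCTP libraries lay within or below it. Mrps27 rose with shNsd2 by 0.17 (SE 0.048, adjusted p = 0.0177), which was lost without shNsd2 replicate 1 (0.0764) or 2 (0.0524), with the replicate block (0.0563) and with all 9 libraries in 1 fit (0.0603). The MCTP fold change was -0.08 (SE 0.069, adjusted p = 0.381), called with GC correction (-0.14, adjusted p = 0.0348). Between the treated groups the difference was 0.25 (SE 0.068, adjusted p = 0.021), lost without shNsd2 replicate 1 (0.0853) or 2 (0.0676).

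Other genes with low MCTP values were Mrpl50 and Mrps35, which have no bacterial counterpart. Mrpl50 stood at 9.83, 9.73 and 9.71 in the control libraries, 9.74, 9.76 and 9.90 in the shNsd2 libraries and 9.37, 9.57 and 9.32 in the MCTP libraries. The MCTP libraries were the lowest, and control and shNsd2 libraries overlapped. It fell with MCTP at a fold change of -0.34 (SE 0.078, adjusted p = 0.0145), a call lost without control replicate 1 (0.0568) or MCTP replicate 1 (0.0693), and GC correction brought the value to -0.18 (adjusted p = 0.00512). With shNsd2 the fold change was 0.04 (SE 0.055, adjusted p = 0.57), called with GC correction (0.10, adjusted p = 0.0249), and shNsd2 exceeded MCTP by 0.38 (SE 0.08, adjusted p = 0.00821). Mrps35 had values of 10.26, 10.29 and 10.28 in the control libraries, 10.26, 10.30 and 10.25 in the shNsd2 libraries and 10.13, 9.96 and 10.11 in the MCTP libraries. Control and shNsd2 values were alike in range, and all MCTP values were lower. Mrps35 fell with MCTP at a fold change of -0.21 (SE 0.061, adjusted p = 0.032). This was lost without control replicates 1, 2 and 3 (adjusted p = 0.0822, 0.114 and 0.0953) and MCTP replicate 1 (0.0613). The call of Mrps35 also ended with GC correction (-0.10, adjusted p = 0.340), length correction (0.0726), median centring (0.0766), quantile normalization (0.0604), the replicate block (0.0724) and that block with GC correction (0.324).

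Mrpl35 and Mrpl33, small proteins of the large subunit, differed between the treated groups. Mrpl35 stood at 10.01, 9.92 and 9.86 in the control libraries, 10.09, 10.15 and 10.19 in the shNsd2 libraries and 9.80, 9.96 and 9.82 in the MCTP libraries. Its shNsd2 libraries exceeded all others, and control and MCTP libraries overlapped. The rise with shNsd2 against control was 0.21 (SE 0.049, adjusted p = 0.00757), and against MCTP it was 0.28 (SE 0.061, adjusted p = 0.00863). Mrpl33 had values of 11.01, 10.85 and 10.85 in the control libraries, 10.80, 10.83 and 10.81 in the shNsd2 libraries and 11.02, 10.97 and 11.04 in the MCTP libraries. Its shNsd2 libraries were the lowest, and its MCTP libraries overlapped the controls. Against MCTP, Mrpl33 was lower in shNsd2 cells, at -0.19 (SE 0.043, adjusted p = 0.0105), lost without shNsd2 replicate 1 (0.0563) and with the replicate block (0.0796). Mrpl33 was not among the 75 genes of the fits with GC or length correction, so its call was not tested there.

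The vertebrate mitoribosome has 3 relatives of the bacterial S18 protein, which occupy different sites. Mrps18a, which sits in the large subunit, had values of 10.17, 10.27 and 10.27 in the control libraries, 10.50, 10.48 and 10.39 in the shNsd2 libraries and 10.47, 10.33 and 10.62 in the MCTP libraries. Both treated groups lay above the control group. It rose with shNsd2 by 0.22 (SE 0.046, adjusted p = 0.0042), and its MCTP fold change was 0.24 (SE 0.08, adjusted p = 0.0536), or 0.31 (adjusted p = 0.00177) without MCTP replicate 2. That value was also called with GC correction (0.14, adjusted p = 0.0382), median centring (0.0450), quantile normalization (0.0458) and all 9 libraries in 1 fit (0.0245). Mrps18b, a small subunit protein, stood at 10.88, 11.01 and 11.003 in the control libraries, 11.30, 11.29 and 11.24 in the shNsd2 libraries and 11.03, 10.88 and 11.20 in the MCTP libraries. The shNsd2 libraries lay above all others and the MCTP libraries overlapped the controls. It rose with shNsd2 by 0.31 (SE 0.043, adjusted p = 4.54e-04), while the MCTP fold change was 0.07 (SE 0.083, adjusted p = 0.508). Mrps18b was higher in shNsd2 than in MCTP cells by 0.24 (SE 0.078, adjusted p = 0.0397), lost without MCTP replicate 1 (0.118) or shNsd2 replicates 1, 2 and 3 (0.118, 0.111 and 0.0849), and with the replicate block (0.0715), quantile normalization (0.0642) and median centring (0.0673). Mrps18c, the relative at the bacterial site, had values of 9.07, 8.99 and 8.89 in the control libraries, 9.04, 8.97 and 9.06 in the shNsd2 libraries and 8.72, 9.08 and 8.82 in the MCTP libraries. All 3 groups overlapped. Its fold changes were 0.04 (SE 0.055, adjusted p = 0.571) with shNsd2 and -0.11 (SE 0.099, adjusted p = 0.422) with MCTP, and without MCTP replicate 2 the latter was -0.21 (adjusted p = 0.0225).

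Mrps30, a large subunit protein despite its symbol, stood at 10.23, 10.34 and 10.36 in the control libraries, 10.40, 10.32 and 10.32 in the shNsd2 libraries and 10.30, 10.14 and 10.34 in the MCTP libraries. The 3 groups overlapped. Its fold changes were 0.04 (SE 0.046, adjusted p = 0.507) and -0.05 (SE 0.069, adjusted p = 0.606). Mrpl48, a mitochondrion-specific large subunit protein, had values of 10.12, 10.16 and 10.18 in the control libraries, 9.98, 10.004 and 10.01 in the shNsd2 libraries and 10.05, 10.004 and 10.13 in the MCTP libraries. Its shNsd2 libraries lay below the controls. Mrpl48 fell with shNsd2 at a fold change of -0.16 (SE 0.036, adjusted p = 0.00683), in every fit with a library left out but not with the replicate block and GC correction together (-0.10, adjusted p = 0.0531), and its MCTP fold change was -0.09 (SE 0.054, adjusted p = 0.208). Mrps36, the gene outside the ribosome, had values of 9.65, 9.63 and 9.63 in the control libraries, 9.49, 9.46 and 9.45 in the shNsd2 libraries and 9.57, 9.49 and 9.62 in the MCTP libraries. The shNsd2 values were again below all controls, as were the MCTP values by smaller margins. It fell with shNsd2 at a fold change of -0.17 (SE 0.037, adjusted p = 0.00503), called in all 6 fits with a library left out, and its MCTP fold change was -0.08 (SE 0.055, adjusted p = 0.292), called with length correction (-0.14, adjusted p = 0.0427). Pseudogene copies of Mrpl48 and Mrps36 are annotated, and reads may be shared with them. Without Mrps36, 2 of the 75 ribosomal genes were thus called lower with shNsd2.

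Both subunits and both origins held called genes. With shNsd2, 26 of the 49 large subunit genes were higher and 1 lower, with a median log2 fold change of 0.13, and 15 of the 26 small subunit genes were higher and 1 lower, with a median of 0.14. In the split by origin, Mrps18a and Mrps18b count as mitochondrion-specific although they are relatives of a bacterial protein. Among 46 genes with a bacterial counterpart 25 were higher and 1 lower, and among 29 mitochondrion-specific genes 16 were higher and 1 lower. Over all genes 23.1% were higher and 24.8% lower. With MCTP, 7 large subunit genes were higher and 1 lower, and without MCTP replicate 2 these were 26 and 4. In the small subunit 4 were higher and 3 lower with MCTP, and 13 and 4 without that replicate. Over all genes these shares were 17.99% and 17.2%, and 29.8% and 30.6% without it.

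The 76 genes covered a modest range of levels, with single values between 7.76 and 12.10 and means over the 9 libraries between 8.27 and 11.88. The SD between replicates, as the median over these genes, was 0.047 in control, 0.046 in shNsd2 and 0.113 in MCTP libraries, against 0.050, 0.043 and 0.084 over the other genes. Their median GC content was 49.9%, near the 49.8% of all genes, and their longest transcripts were short, with a median of 1764 bases against 3334. Across the 75 genes with an annotation match, the fold change had a rho with GC content of 0.37 with shNsd2 and 0.45 with MCTP. Over all genes it was 0.25 and 0.47. With transcript length the rho was -0.06 and -0.28 over the 75 genes and -0.12 and -0.28 over all genes. With a correction for length the median fold change of the 75 genes with MCTP was 0.04, against 0.11 without it. With shNsd2 the GC correction gave 44 genes higher and 3 lower, where 27.9% and 28.2% of all genes were called.

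Position on the genome was scattered. The genes with coordinates lie on 17 chromosomes, and chromosome 11 holds the most, 10. Of the 75, 31 share exonic bases with another annotated gene, 23 of them with a protein-coding gene. Of these 23, 20 share bases with a gene on the opposite strand and 4 with a gene on the same strand, with Mrps34 in both counts. Mrps25 shares 4590 bases with Nr2c2, Mrps34 shares 1309 with Mapk8ip3 and Mrpl48 shares 708 with Rab6a, each on the opposite strand. Mrps34 also shares 763 bases with Nme3 on the same strand. Since the strand used in counting is not stated, reads in shared bases may have been assigned to either gene or to neither. For bases shared on the same strand this holds whichever strand was counted.

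Members that rose together allow a look at their promoters. RefSeq windows on GRCm38.p6, from 250 bases before to 50 after the transcript start, were matched for 67 of the 76 genes, giving 73 windows. Short motifs were searched on both strands, as letters only, and a match describes the sequence and not binding. The ETS core CCGGAAG was found in 32.9% of these windows, 17.6% of the 12394 windows of genes in the expression table and 8.86% of all 32851 windows. The YY1 core AAGATGGCG was found in 10.96%, 3.001% and 1.40%, and the NRF1 core GCGCATGCG in 9.59%, 3.58% and 1.75%. The E-box CACGTG was found in 9.59%, 9.83% and 7.15%, and the SP1 core GGGCGG in 52.1%, 63.1% and 35.7%. Matches to different motifs overlapped in 2 of the 73 windows. The median GC content was 58.3% in these 73 windows and 52.7% in all 32851, and its part in the motif shares was not tested. By gene, the ETS core was present for 37.8% of the 37 genes called higher with shNsd2 and 33.3% of the 30 others. For the YY1 core these shares were 16.2% and 6.67%, and for the NRF1 core 10.8% and 10%. For the E-box they were 8.11% and 6.67%, and for the SP1 core 45.9% and 53.3%.

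The windows of 5 genes described above show the motifs in place. They were chosen for the largest rises with shNsd2 (Mrpl20, Mrpl37, Mrps12), the S18 relative with the largest rise (Mrps18b) and the gene called in opposite directions (Mrps22), after values had been seen. Each runs 5′ to 3′ on the strand of its gene, with every motif match in capitals. Mrpl20 spans chr4:155802628-155802927 on the plus strand, Mrpl37 spans chr4:107066817-107067116 on the minus strand, Mrps12 spans chr7:28741772-28742071 on the minus strand, Mrps18b spans chr17:35916391-35916690 on the minus strand and Mrps22 spans chr9:98601630-98601929 on the minus strand.
Mrpl20: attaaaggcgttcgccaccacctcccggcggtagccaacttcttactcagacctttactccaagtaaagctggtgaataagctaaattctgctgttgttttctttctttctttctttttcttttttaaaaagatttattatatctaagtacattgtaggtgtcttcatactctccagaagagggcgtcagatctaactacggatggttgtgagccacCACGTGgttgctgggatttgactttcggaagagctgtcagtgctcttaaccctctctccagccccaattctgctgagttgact
Mrpl37: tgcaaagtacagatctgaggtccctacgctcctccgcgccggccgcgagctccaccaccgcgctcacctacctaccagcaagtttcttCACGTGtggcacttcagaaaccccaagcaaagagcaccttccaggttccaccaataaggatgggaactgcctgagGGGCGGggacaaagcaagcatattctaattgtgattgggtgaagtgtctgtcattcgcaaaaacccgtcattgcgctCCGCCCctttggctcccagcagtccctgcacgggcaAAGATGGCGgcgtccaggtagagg
Mrps12: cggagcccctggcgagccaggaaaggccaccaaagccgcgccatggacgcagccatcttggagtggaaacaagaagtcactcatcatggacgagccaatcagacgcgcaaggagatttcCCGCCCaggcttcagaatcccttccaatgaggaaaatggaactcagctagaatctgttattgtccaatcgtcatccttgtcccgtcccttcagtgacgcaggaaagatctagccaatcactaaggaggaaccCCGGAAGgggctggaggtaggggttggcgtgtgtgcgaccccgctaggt
Mrps18b: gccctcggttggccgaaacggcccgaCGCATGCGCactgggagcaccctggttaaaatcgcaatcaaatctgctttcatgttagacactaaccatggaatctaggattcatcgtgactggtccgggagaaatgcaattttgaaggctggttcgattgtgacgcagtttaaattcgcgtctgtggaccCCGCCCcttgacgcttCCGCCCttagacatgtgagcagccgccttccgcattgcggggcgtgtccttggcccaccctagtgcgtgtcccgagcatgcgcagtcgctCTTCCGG
Mrps22: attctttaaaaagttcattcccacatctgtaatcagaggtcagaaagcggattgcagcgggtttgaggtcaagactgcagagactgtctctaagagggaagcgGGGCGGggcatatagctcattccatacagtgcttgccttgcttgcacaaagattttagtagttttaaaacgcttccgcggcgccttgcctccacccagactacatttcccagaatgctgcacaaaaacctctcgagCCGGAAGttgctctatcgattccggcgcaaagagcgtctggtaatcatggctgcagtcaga

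Related genes outside the symbol rule were counted in lists, with the count after each left-out library given in the order control replicates 1, 2 and 3 and then treated replicates 1, 2 and 3. Over all genes tested, 23.1% were called higher and 24.8% lower with shNsd2, and 17.99% and 17.2% with MCTP. With GC correction these shares were 27.9% and 28.2% with shNsd2 and 22.6% and 22.99% with MCTP. In the left-out fits, in that order, all genes gave 24.5%, 18.7%, 19.9%, 17.2%, 16.7% and 22.1% higher with shNsd2. The lower shares with shNsd2 were 24.8%, 20.4%, 22.2%, 19.4%, 18.8% and 24.2%. With MCTP the shares were 10.6%, 9.95%, 10.8%, 9.19%, 29.8% and 12.8% higher and 8.76%, 7.75%, 9.27%, 7.56%, 30.6% and 10.5% lower. The genes named for a list are among its largest called changes in that comparison and were called in all 6 fits with a library left out. Mitoribosomal proteins under other symbols numbered 7, of which 3 were higher with shNsd2 in every one of these fits, with a median log2 fold change of 0.08, or 0.027 without control replicate 1. Chchd1, a small subunit protein, rose by 0.32 (SE 0.042, adjusted p = 3.73e-04), Ptcd3, another small subunit protein, rose by 0.23 (SE 0.051, adjusted p = 0.00514), and Gadd45gip1, a large subunit protein, rose by 0.23 (SE 0.055, adjusted p = 0.00927). All 3 had every shNsd2 library above every control library, and Gadd45gip1 was not called with all 9 libraries in 1 fit (0.0771). With MCTP, limma called 0 of the 7, and 0 at an unadjusted p under 0.05, with a median of 0.05. Without MCTP replicate 2 it called 1 higher, with a median of 0.11, and with GC correction also 1. The median was 0.03 without MCTP replicate 1, 0.003 without control replicate 1 and -0.01 without MCTP replicate 3. It was 0.0002 with length correction, 0.08 with median centring and 0.08 with quantile normalization.

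Factors that assemble the mitoribosome or modify its rRNA had 26 genes tested of 34 symbols listed, older and newer symbols of the same gene included. With shNsd2 12 were higher and 1 lower, with a median of 0.13 (0.08 without control replicate 1 and also with GC correction), and with a library left out the higher count was 10, 9, 8, 8, 7 and 11 and the lower count 2, 0, 0, 1, 0 and 0. GC correction, median centring and quantile normalization each left 0 lower in limma, with 1, 1 and 0 lower at an unadjusted p under 0.05. Mettl17, a methyltransferase-like factor of the small subunit, had values of 8.52, 8.40 and 8.46 in the control libraries, 8.999, 9.08 and 9.07 in the shNsd2 libraries and 8.57, 8.51 and 8.56 in the MCTP libraries. Its shNsd2 libraries lay well above the other 6. Mettl17 rose by 0.59 (SE 0.047, adjusted p = 2.52e-05). Tbrg4, a mitochondrial RNA-binding protein, rose by 0.47 (SE 0.048, adjusted p = 9.59e-05), and Ngrn, needed for the large rRNA, by 0.37 (SE 0.039, adjusted p = 1.15e-04). With MCTP 2 were higher, and with a library left out 1, 1, 2, 1, 6 and 2. There were 3 lower without MCTP replicate 2 and 2 with GC correction. Mpv17l2, an assembly factor of the inner membrane, rose with MCTP by 0.53 (SE 0.096, adjusted p = 0.00602).

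Mitochondrial translation factors had 17 genes tested. With shNsd2 6 were higher and 2 lower, with a median of 0.015 that ran from 0.003 without shNsd2 replicate 1 to 0.03 without control replicate 3, and left-out libraries gave 4, 4, 6, 3, 4 and 5 higher and 0, 1, 2, 0, 0 and 3 lower. Tufm, the elongation factor Tu, rose by 0.38 (SE 0.049, adjusted p = 3.41e-04), and Lrpprc, which stabilises mitochondrial mRNAs, by 0.25 (SE 0.042, adjusted p = 0.00139). With MCTP 2 were lower, with a median of -0.05, and left-out libraries gave 1, 1, 1, 0, 5 and 1 lower, and 3 higher without MCTP replicate 2. GC correction gave 3 higher and 5 lower with MCTP. The median with MCTP was -0.032 without MCTP replicate 2, -0.015 with median centring, -0.022 with quantile normalization and -0.077 with length correction. Length correction gave 4 lower, where 17.5% of all genes were called lower.

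Genes for replication and transcription of mitochondrial DNA had 9 tested. With shNsd2 2 were higher, and 2, 2, 2, 1, 1 and 2 with a library left out, and Polrmt, the mitochondrial RNA polymerase, rose by 0.27 (SE 0.048, adjusted p = 0.00206). With MCTP 2 were lower, and 1, 1, 1, 1, 4 and 1 with a library left out, and 1 higher without MCTP replicate 2. Tfam, which packages mitochondrial DNA and starts its transcription, had values of 10.43, 10.35 and 10.26 in the control libraries, 10.35, 10.31 and 10.39 in the shNsd2 libraries and 9.96, 10.09 and 9.86 in the MCTP libraries. Its MCTP libraries lay below all others. Tfam fell with MCTP at a fold change of -0.38 (SE 0.075, adjusted p = 0.00817).

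Mitochondrial chaperones and proteases had 11 tested. With shNsd2 5 were higher, in every fit with a library left out, with a median of 0.08. The median was 0.03 without control replicate 1, 0.12 without control replicate 3, 0.04 without shNsd2 replicate 3 and 0.13 with GC correction. There was 1 lower without control replicate 1, and 2 with GC correction. Lonp1, a matrix protease, rose by 0.40 (SE 0.062, adjusted p = 9.53e-04), Hspe1, a co-chaperonin, by 0.31 (SE 0.031, adjusted p = 8.35e-05), and Clpp, a matrix protease subunit, by 0.27 (SE 0.061, adjusted p = 0.00629). With MCTP 3 were lower, with a median of -0.08, and 2, 1, 2, 1, 4 and 2 with a library left out, and 1 higher without MCTP replicate 2. GC correction gave 6 lower with MCTP. Hspa9, the matrix Hsp70, had values of 14.73, 14.93 and 14.96 in the control libraries, 14.90, 14.93 and 15.03 in the shNsd2 libraries and 14.39, 14.39 and 14.34 in the MCTP libraries. Its MCTP libraries were the lowest of the 9. Hspa9 fell with MCTP at a fold change of -0.50 (SE 0.071, adjusted p = 0.00216).

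Regulators of nuclear genes for mitochondria had 9 tested. With shNsd2 4 were higher and 2 lower, with a median of 0.07 (0.11 without control replicate 1), and left-out libraries gave 3, 3, 3, 3, 2 and 3 higher and 1, 1, 1, 1, 1 and 2 lower. Ppargc1a, a transcriptional coactivator of mitochondrial genes, had values of 6.74, 6.65 and 6.66 in the control libraries, 6.27, 6.17 and 6.30 in the shNsd2 libraries and 6.33, 6.41 and 6.21 in the MCTP libraries. Both treated groups lay below the control group. Ppargc1a fell at a fold change of -0.44 (SE 0.045, adjusted p = 1.01e-04) with shNsd2 and -0.37 (SE 0.06, adjusted p = 0.00381) with MCTP, where GC correction gave -0.19 (adjusted p = 0.00962). Pprc1, a related coactivator, rose with shNsd2 by 0.36 (SE 0.052, adjusted p = 5.67e-04), and Esrra, a nuclear receptor, by 0.21 (SE 0.043, adjusted p = 0.00424). With MCTP 4 were lower, with a median of -0.22, and 4, 2, 2, 3, 6 and 4 with a library left out, and 1 higher without MCTP replicate 2. GC correction gave 7 lower with MCTP, and length correction gave a median of -0.13. Gabpb1, a subunit of an ETS family factor, fell at a fold change of -0.28 (SE 0.059, adjusted p = 0.0105).

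Of the 15 mitochondrially encoded genes, 4 were higher with shNsd2, with a median of 0.13 (0.198 without control replicate 1, 0.08 without control replicate 3), and left-out libraries gave 10, 1, 1, 2, 3 and 1. GC correction gave 10 higher. The gene mt-Rnr1, for the small subunit rRNA, stood at 11.19, 11.11 and 10.98 in the control libraries, 11.33, 11.29 and 11.31 in the shNsd2 libraries and 10.99, 11.25 and 11.09 in the MCTP libraries. Its shNsd2 libraries lay above the controls, and the MCTP libraries overlapped the controls. It rose with shNsd2 by 0.21 (SE 0.052, adjusted p = 0.00839). The libraries were made from polyadenylated RNA, so this value need not follow the amount of that rRNA. With MCTP limma called 0 of the 15 genes in either direction, with 0 lower and 0 higher at an unadjusted p under 0.05. Without MCTP replicate 2 it called 7 lower, with a median of -0.15, and with GC correction it called 11 higher, with a median of 0.24. Over all genes, 30.6% were called lower without MCTP replicate 2 and 22.6% higher with GC correction.

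The largest related families were read for comparison. Of 78 cytosolic ribosomal protein genes, 19 were higher with shNsd2 (24.4%, where all genes gave 23.1%), with a median of 0.06 (0.04 without shNsd2 replicate 1, 0.09 without shNsd2 replicate 3), and left-out libraries gave 19, 17, 16, 7, 9 and 25. There were 3 lower without control replicate 1, 1 without shNsd2 replicate 3 and 2 with GC correction. Rplp0, the cytosolic stalk base, rose by 0.34 (SE 0.058, adjusted p = 0.00139), Rpl14 by 0.29 (SE 0.044, adjusted p = 8.62e-04) and Rpl7l1, a relative of a ribosomal protein, by 0.23 (SE 0.033, adjusted p = 5.33e-04). With MCTP 4 were higher and 2 lower (5.13% and 2.56%, where all genes gave 17.99% and 17.2%), or 9 and 3 with GC correction, with left-out libraries giving 1, 1, 1, 1, 36 and 2 higher and 1, 1, 1, 1, 4 and 2 lower. Without MCTP replicate 2, calls over all genes also grew, to 29.8% higher and 30.6% lower. Rps27l rose by 0.46 (SE 0.058, adjusted p = 0.00125) and Rpl22l1 fell at a fold change of -0.49 (SE 0.098, adjusted p = 0.00831), both relatives of ribosomal proteins. Of 82 tested nuclear genes for oxidative phosphorylation, 21 were higher with shNsd2 and 3 lower (25.6% and 3.66%, where all genes gave 23.1% and 24.8%), with a median of 0.05 (0.024 without shNsd2 replicate 1, 0.08 without shNsd2 replicate 3, 0.03 with length correction), and left-out libraries gave 19, 21, 15, 8, 10 and 29 higher and 4, 3, 5, 3, 3 and 3 lower. Length correction gave 7 lower. Uqcrq, a complex III subunit, rose by 0.45 (SE 0.052, adjusted p = 1.78e-04). With MCTP 15 of 83 were higher and 1 lower (18.1% and 1.2%), with a median of 0.13 (0.07 without MCTP replicate 3), or 26 higher and 1 lower with GC correction, and left-out libraries gave 2, 3, 2, 2, 54 and 5 higher and 0, 0, 0, 0, 4 and 0 lower. Median centring and quantile normalization each left 0 lower in limma, with 1 and 1 lower at an unadjusted p under 0.05. Ndufa11, a complex I subunit, rose with MCTP by 0.50 (SE 0.091, adjusted p = 0.00569). The symbol rule for that list also took in Ndufaf3, an assembly factor, and Cox4nb, which belongs to a membrane complex of the endoplasmic reticulum. With shNsd2 Ndufaf3 was lower, at -0.37 (SE 0.049, adjusted p = 4.09e-04), and Cox4nb higher, at 0.35 (SE 0.048, adjusted p = 4.81e-04).

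Of 17 mitochondrial tRNA synthetase genes, 9 were higher with shNsd2 and 1 lower, with a median of 0.12, and left-out libraries gave 5, 7, 6, 4, 4 and 9 higher and 2, 1, 1, 1, 1 and 1 lower, and GC correction 2 lower. Mars2, for methionine, rose by 0.24 (SE 0.045, adjusted p = 0.00226), and Tars2, for threonine, by 0.24 (SE 0.04, adjusted p = 0.00128). With MCTP 4 were lower, with a median of -0.008 (0.03 without MCTP replicate 2), or 2 higher and 2 lower with GC correction, and left-out libraries gave 2, 1, 2, 2, 4 and 3 lower, and 3 higher without MCTP replicate 2. Wars2, for tryptophan, fell with MCTP at a fold change of -0.27 (SE 0.054, adjusted p = 0.00848).

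Between the treated groups, the same rule named these genes of the lists, each called in all 6 fits with a library left out and under every other alternative. Higher in shNsd2 than in MCTP cells were Mettl17, by 0.50 (SE 0.05, adjusted p = 3.30e-04), Tbrg4, by 0.38 (SE 0.066, adjusted p = 0.00374), Lrpprc, by 0.45 (SE 0.061, adjusted p = 0.00129), and Pdf, a peptide deformylase gene, by 0.29 (SE 0.052, adjusted p = 0.00365). Tfam was higher by 0.38 (SE 0.065, adjusted p = 0.00338), Hspa9 by 0.58 (SE 0.054, adjusted p = 2.23e-04), Lonp1 by 0.52 (SE 0.068, adjusted p = 0.00102) and Hspd1, the chaperonin gene, by 0.49 (SE 0.064, adjusted p = 0.00106). Myc, a transcription factor gene in the list of regulators, was higher by 0.48 (SE 0.046, adjusted p = 2.69e-04), Pprc1 by 0.40 (SE 0.051, adjusted p = 9.89e-04) and Wars2 by 0.37 (SE 0.051, adjusted p = 0.00135). Lower in shNsd2 cells were Rps27l, at -0.41 (SE 0.055, adjusted p = 0.00117), and Ndufaf3, at -0.45 (SE 0.076, adjusted p = 0.0031).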

How the data were processed

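RNA of 9 libraries of NPK cells was sequenced, 3 per group. The deposited table holds log2 values for 12842 genes, scaled between libraries by the authors. The submitters' processing notes name bcl2fastq 1.8.4, TopHat, Cufflinks, DESeq and DESeq2 with build mm9, but not the order of steps or the strand of counting. The table has 12 value columns, of which 3 matched no sample and were not used. Read depth is unknown, so no counting error is given.

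A gene was tested where 3 or more of the 6 libraries compared exceeded 3.78, a floor set at the median among the lowest 10% of values. Each comparison was fitted with limma 3.58.1 in R 4.3.3 (lmFit, eBayes with a trend, two-sided) on the log2 values, and p-values were adjusted over every tested gene (Benjamini-Hochberg, threshold 0.05). The p measures spread between samples that may be technical, since the labels do not say that libraries came from separate cultures. This fit was tested on simulated data, and the GC and length corrections were not. The simulated noise was independent between genes, so deviations shared by many genes, such as the trends with GC content, were not covered. Tables and plots were made in Python 3.11.15 with pandas 2.3.3 and matplotlib 3.10.9.

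The genes and lists were chosen with earlier results of these data known. Genes named are the 5 largest rises and falls per comparison among called genes whose groups do not overlap, 16 genes picked by role, genes called in opposite directions, and, for other lists, up to 3 called genes with the largest change per comparison, of which those called in every fit with a library left out are printed. GC content, transcript length, coordinates and overlaps came from GENCODE M21 on GRCm38, which is not the authors' build mm9, and were matched by gene ID for 12513 genes.

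The alternatives were no filter, a stricter filter, all 9 libraries in one fit, a replicate block, that block with GC correction, each library left out, quantile normalization, median centring, eBayes without a trend, and lowess corrections for GC content or transcript length (span 0.3). The lowess corrections remove any group difference that follows GC content or length, whether technical or not.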

Additional observations from a re-analysis of the deposited data

How the results depend on the processing

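The counts and median with shNsd2 against control kept within 1.5 times under every alternative. With each library left out, the higher count ran from 28 to 42 and the lower count from 2 to 4. Over all genes these fits called 16.7% to 24.5% higher and 18.8% to 24.8% lower. The median fold change ran from 0.12 to 0.15.

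With MCTP against control, 1 fit of all 9 libraries gave 20 higher and 7 lower, where 23.3% and 23.4% of all genes were called, and the replicate block gave 7 and 2, where 13.9% and 13.97% were. GC correction gave 18 higher (22.6% of all genes) and median centring 2 lower (13.99%). The median was 0.04 with length correction. With a library left out, the higher count ran from 2 to 39 (9.19% to 29.8% of all genes), the lower count from 1 to 8 (7.56% to 30.6%) and the median from 0.05 to 0.16. The cause was not tested.

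For shNsd2 against MCTP, the higher count was 18 with all 9 libraries in 1 fit, 4 with the replicate block, 6 with median centring, 20 with GC correction and 17 with length correction. Over all genes these fits called 23.9%, 14.04%, 18.52%, 27.98% and 21.8% higher. The lower count was 2 with GC correction (28.4% of all genes) and, in limma, 0 with the replicate block, 0 with that block and GC correction and 0 with length correction, where 1, 2 and 0 genes were lower at an unadjusted p under 0.05. The median was 0.017 with quantile normalization and 0.021 with median centring, against 0.037. With a library left out, the higher count ran from 3 to 18 (11.6% to 31.6% of all genes), the lower count from 0 to 15 (15.9% to 32.1%) and the median from -0.0238 to 0.0943. It was reversed without MCTP replicate 2. The cause was not tested.

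The block pairs libraries by replicate number, but the numbers do not pair them: deviations from the group means correlated across genes at -0.49, 0.24 and -0.51 for replicates 1, 2 and 3 of shNsd2 and control, and at -0.60, -0.56 and 0.61 for MCTP and control. With the block, 29 genes were higher and 2 lower with shNsd2 (17.2% and 19.7% of all genes).

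For single named genes over all alternatives, 1055 values kept direction and side of the threshold, 104 fell short of it, 31 passed it anew and 49 changed sign. The sign changed for 1 called value: for shNsd2 against MCTP, Mrps9 was at -0.0008 with GC correction and with the block and GC correction together (adjusted p = 0.996), against 0.18. The other sign changes lay between fits that did not call the gene.

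GC correction, alone and with the block, gave the same reversed values. They were 0.057 for Mrps35 with shNsd2, and 0.0574, 0.0008 and 0.1475 for Mrpl35, Mrps18c and Mrps30 with MCTP. For shNsd2 against MCTP they were 0.0327, -0.0179, -0.0605 and 0.0299 for Mrps18a, Mrps25, Mrps30 and Mrps34. Length correction reversed Mrps35 with shNsd2 (0.0141) and Mrpl20, Mrps18a, Mrps25 and Mrps34 between the treated groups (0.0084, 0.013, -0.0357 and 0.0346). Median centring reversed Mrps35 with shNsd2 (0.0137) and Mrpl11 between the treated groups (-0.0031), and quantile normalization Mrpl11 and Mrps25 there (-0.0068 and -0.0087).

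With a library left out, the shNsd2 values that changed sign ran from -0.0106 to 0.0777 for Mrpl50, -0.0071 to 0.0852 for Mrps18c, -0.0011 to 0.0623 for Mrps30 and -0.0166 to 0.0054 for Mrps35. With MCTP they ran from -0.1112 to 0.0123 for Mrpl44, -0.0063 to 0.15 for Mrps18b and -0.0875 to 0.0114 for Mrps30. Between the treated groups they ran from -0.1354 to 0.0039 for Mrpl10, -0.0606 to 0.063 for Mrpl11, -0.1223 to 0.0537 for Mrpl20, -0.0253 to 0.1271 for Mrpl34, -0.0883 to 0.0613 for Mrps18a, -0.051 to 0.0807 for Mrps25 and -0.0833 to 0.0931 for Mrps34. The cause was not tested.

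Corrected fits held 75 of the 76 genes, without Mrpl33. Depth is unknown, so low genes have no counting floor.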
